A study of Macaca mulatta with 4 samples.

Results

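The genes described here are 9 that receive or end the acetylcholine signal: the muscarinic receptors CHRM1, CHRM2, CHRM3 and CHRM4, the nicotinic receptor subunits CHRNA3, CHRNA4, CHRNA7 and CHRNB2, and the enzyme acetylcholinesterase, ACHE. They were taken by symbol from the 35395 Ensembl macaque gene IDs of the count table, and each symbol matched 1 ID. The libraries came from the amygdala of wild-type rhesus macaques. The sevoflurane group held 1 male and 1 female library. The anaesthetic had been inhaled at about 2.5 to 3% for 4 hours on about postnatal days 7, 21 and 35. Tissue was collected straight after the last exposure. The control group also held 1 male and 1 female library, and none of the sources used here says what the control animals breathed. Whether each library came from 1 animal is not stated either, so p-values measure the spread between these libraries, which within a condition includes the difference between the sexes.

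Acetylcholine reaches the primate amygdala mainly from cholinergic neurons of the basal forebrain. Muscarinic receptors are G protein-coupled: M1 and M3 act through Gq and phospholipase C, and M2 and M4 act through Gi and Go, which lower cyclic AMP and open inward-rectifier potassium channels. Nicotinic receptors are cation channels built from alpha and beta subunits, and volatile anaesthetics are known to inhibit both receptor classes. ACHE splits acetylcholine in the synaptic cleft and so ends the signal.

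Reads on genes ranged from 12477047 to 16293371 per library. Y-linked reads, over 8 genes, fitted the labelled sexes: the males had 7578 (sevoflurane) and 5794 (control), and the females had 6 (sevoflurane) and 10 (control). Neuronal markers were abundant in every library, and each of the 9 excitatory, 10 inhibitory and 10 general neuronal markers had reads in all 4. The control male library stood apart: 8 choroid plexus markers summed to 18211 CPM (reads of a gene over the scaled library size, times 1e6) there, against 9.41 to 48.7 in the other libraries, and 9 striatal-type neuron markers to 2499 CPM, against 266 to 423. Conditions also differed in classes of transcript. In the sevoflurane libraries 67 of 79 tested cytosolic ribosomal protein genes and 15 of 20 short messenger RNAs for spliceosome and proteasome subunits were lower, with median log2 fold changes of −1.76 and −1.34, and 0 of either class were higher. The part of these differences in the results below was not tested. The design does not separate sevoflurane from handling or library preparation.

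In the sevoflurane libraries CHRM2, CHRM3 and CHRNB2 were higher and ACHE was lower. The count test on all genes (edgeR's quasi-likelihood F-test) could be run on 8 of the 9 members, since CHRNA4 had too few reads. Calls were made where the Benjamini-Hochberg adjusted p lay under 0.05. Of the 8 members, 3 were called higher and 1 lower. Among all 15417 tested genes, 21.3% were called higher and 19.4% lower, 40.7% in all, so 4 of 8 is close to the background share. The calls of CHRM2, CHRM3 and ACHE were each lost in at least 1 refit with a library left out, which leaves fewer samples, as given below. Without the sevoflurane female library the log2 fold changes of CHRM3, CHRNB2 and ACHE were 2.43, 1.96 and −1.92. The levels of both sevoflurane libraries lay outside those of both controls for 5 of the 8 members, against 75% of all tested genes. The median log2 fold change of the 8 was 0.89, against 0.0040 over all tested genes. In tissue, fewer cells of a type and less RNA per cell cannot be told apart.

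**Figure D1:**
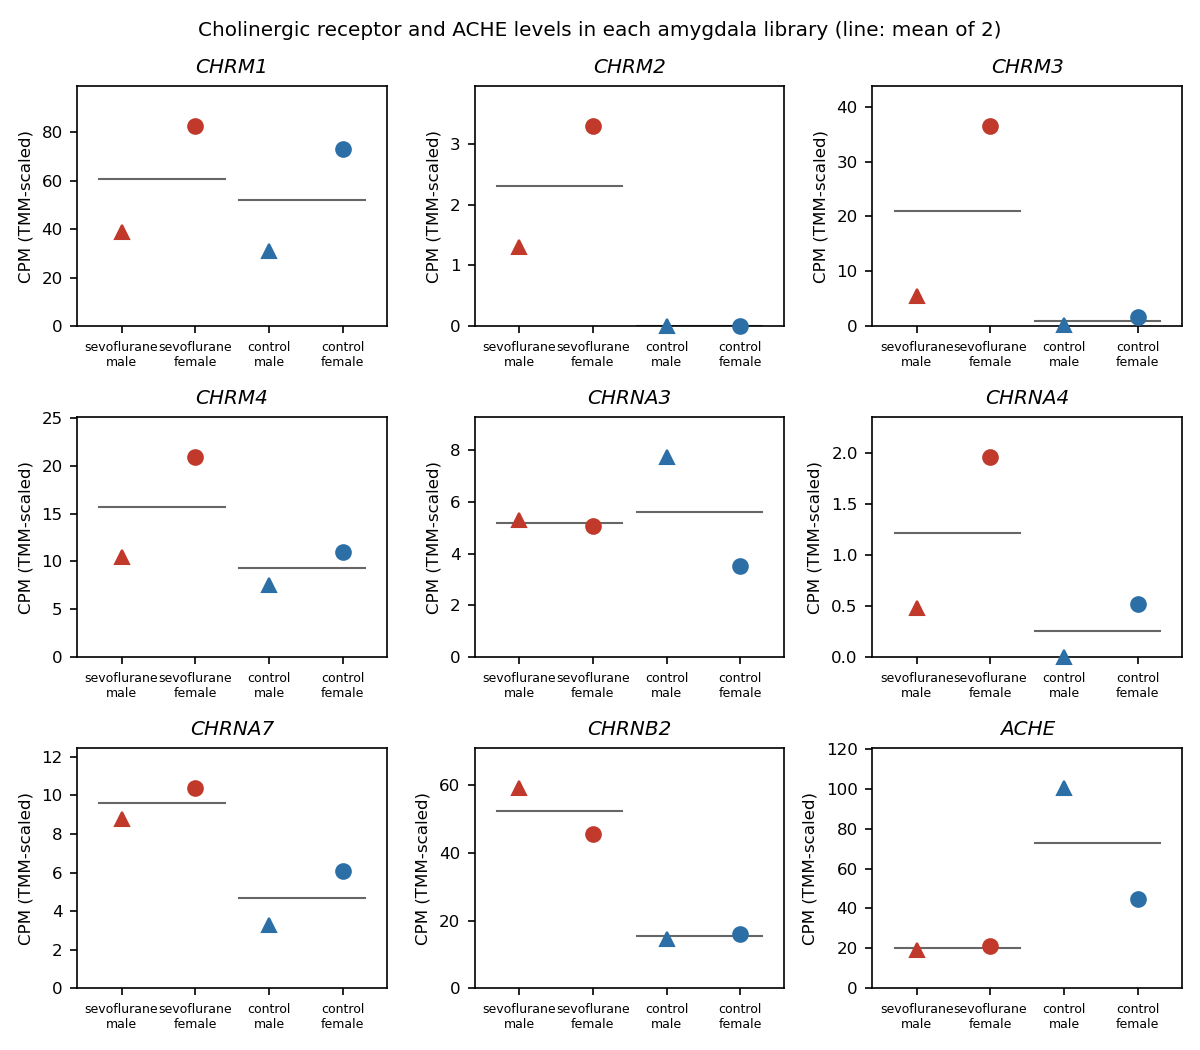
Level of each of the 9 genes in each library, in CPM after TMM scaling, on axes that start at 0. Triangles are males, circles are females, red is sevoflurane, blue is control, and each line is the mean of 2 libraries. CHRNB2 is at 59.1 and 45.6 CPM in the sevoflurane libraries and at 14.7 and 16.0 in controls, whereas ACHE is at 100.3 in the control male.

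Among the Gq-coupled receptors, CHRM3 (ENSMMUG00000021442), which couples acetylcholine to calcium release, had the clearest change. It had 81 reads (5.56 CPM) in the sevoflurane male and 576 (36.5 CPM) in the sevoflurane female library, against 3 (0.266 CPM) in the control male and 27 (1.76 CPM) in the control female. Both sevoflurane libraries were above both controls, and each male was below the female of its condition. The log2 fold change was 4.31 ± 1.15 (SE; edgeR adjusted p = 0.0267, higher in both sexes), and 3.31% of tested genes had a larger one. Within males the ratio of sevoflurane to control was 20.9 (95% counting interval 6.89 to 103) and within females 20.7 (14.1 to 31.7), and these ratios share no library. The fitted size rested on single libraries. Without the sevoflurane female it was 2.43 and the call was lost (adjusted p = 0.172), and without the sevoflurane male it was 5.11. Omitting a control gave 6.27 (female omitted) and 3.53 (male omitted), both called.

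CHRM1 (ENSMMUG00000017292), the most widely expressed muscarinic receptor of forebrain neurons, was not called. It had 564 reads (38.7 CPM) in the sevoflurane male and 1305 (82.6 CPM) in the sevoflurane female library, against 350 (31.1 CPM) and 1119 (73.0 CPM) in the control male and female. The groups overlapped, the female library was the higher in both conditions, and within each sex the sevoflurane library was the higher, with ratios of 1.25 in males and 1.13 in females. The log2 fold change was 0.22 ± 0.52 (edgeR adjusted p = 0.757), and its sign turned without the sevoflurane female (−0.42) or the control male library (−0.30).

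Of the Gi-coupled receptors, CHRM2 (ENSMMUG00000054019), the receptor of heart muscle and an autoreceptor of cholinergic terminals, was detected in the sevoflurane libraries and had no reads in controls. It had 19 reads (1.30 CPM) in the sevoflurane male and 52 (3.29 CPM) in the sevoflurane female, against 0 in each control. Against a floor of 3 reads per control library (mean 0.231 CPM) it was at least 9.95-fold higher (edgeR adjusted p = 0.0112). A count of 0 is a limit of detection at this depth, and does not show that the transcript was absent. The bound was 5.65-fold without the sevoflurane female library, where the call was lost (adjusted p = 0.0807), and 14.2-fold without the sevoflurane male. Omitting a control gave bounds of 8.62-fold (female omitted) and 11.7-fold (male omitted).

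CHRM4 (ENSMMUG00000039412), abundant in striatal-type neurons, had 153 reads (10.5 CPM) in the sevoflurane male and 330 (20.9 CPM) in the sevoflurane female, against 85 (7.55 CPM) in the control male and 169 (11.0 CPM) in the control female. The sevoflurane male lay just below the control female, so the groups overlapped. Its log2 fold change was 0.76 ± 0.48 and it was not called (edgeR adjusted p = 0.241).

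Among nicotinic subunits CHRNB2 (ENSMMUG00000016089), the beta subunit of the main high-affinity nicotinic receptor of the brain, rose. It had 861 reads (59.1 CPM) in the sevoflurane male and 720 (45.6 CPM) in the sevoflurane female, against 165 (14.7 CPM) in the control male and 245 (16.0 CPM) in the control female. The libraries of each condition lay close together, with means of 52.4 ± 9.59 CPM after sevoflurane and 15.3 ± 0.937 CPM in controls (SD, n = 2 each). The log2 fold change was 1.77 ± 0.31, a 3.41-fold difference (edgeR adjusted p = 0.00669, higher in both sexes). It was the 1 member whose call held under each of the 10 other settings and omissions run, with log2 fold changes of 1.58 to 2.00. In RefSeq's assembly T2T-MMU8v2.0 its neighbours are ADAR and UBE2Q1, which were not called (0.29 and −0.50, edgeR adjusted p = 0.389 and 0.164). Other members had called neighbours there: MTPN beside CHRM2 was higher (1.42, edgeR adjusted p = 0.00937). SLC22A6 beside CHRM1 (−4.18, 0.00464) and MDK beside CHRM4 (−2.03, 0.0127) were lower. PTN, SLC3A2, AMBRA1, COL20A1 and MUC3A, also beside members, were not called.

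CHRNA4 (ENSMMUG00000015916), the usual partner of CHRNB2, was scarce. It had 7 reads in the sevoflurane male and 31 in the sevoflurane female, against 0 in the control male and 8 in the control female. Over the groups the ratio was 4.16 (95% counting interval 1.91 to 10.3), which covers counting error only. Fitted with no filter on low counts, its log2 fold change was 2.11 ± 1.23, not a call (edgeR adjusted p = 0.193). A call was therefore not reached for it at this depth.

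CHRNA7 (ENSMMUG00000022577), which forms calcium-permeable receptors of its own, was at 8.79 CPM in the sevoflurane male and 10.4 CPM in the sevoflurane female, against 3.29 CPM in the control male and 6.07 CPM in the control female. Both sevoflurane libraries were above both controls, but the gene was not called (log2 fold change 1.03 ± 0.50, edgeR adjusted p = 0.144). CHRNA3 (ENSMMUG00000023736), best known from autonomic ganglia, was at 5.29 CPM in the sevoflurane male and 5.06 CPM in the sevoflurane female, against 7.73 CPM in the control male and 3.52 CPM in the control female. Its sevoflurane values lay between those of the controls (−0.12 ± 0.57, edgeR adjusted p = 0.885), and its sign turned with library totals in place of TMM (0.13) or without the control male (0.52). CHRNA3 lies between CHRNA5 and CHRNB4 in that RefSeq assembly, and how reads at their borders were assigned is not known.

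ACHE (ENSMMUG00000058568) was the member that fell. It had 276 reads (19.0 CPM) in the sevoflurane male and 337 (21.3 CPM) in the sevoflurane female, against 1129 (100.3 CPM) in the control male and 687 (44.8 CPM) in the control female. The sevoflurane libraries were alike, and the controls were higher and apart from each other, with means of 20.1 ± 1.68 CPM after sevoflurane and 72.6 ± 39.2 CPM in controls (SD, n = 2 each). The log2 fold change was −1.85 ± 0.43 (edgeR adjusted p = 0.0168, lower in both sexes), and 10.3% of tested genes had a more negative one. The ratio of sevoflurane to control was 0.189 (95% counting interval 0.165 to 0.216) in males and 0.476 (0.417 to 0.543) in females. The call was lost without the control male (−1.19, adjusted p = 0.0567), without the sevoflurane female (−1.92, 0.0564) and without the sevoflurane male library (−1.76, 0.0810).

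Striatal tissue is rich in ACHE, and striatal-type markers were also highest in the control male library. PPP1R1B, the phosphoprotein DARPP-32 of dopamine-receptive neurons, was at 115 CPM in the sevoflurane male and 82.5 in the sevoflurane female, against 1336 in the control male and 196 in the control female. PENK, the enkephalin precursor, was at 65.2 and 31.7 CPM in the sevoflurane male and female, against 872 and 118 in the control male and female. Of 9 tested markers of this type 3 were called higher (FOXP2 and DRD1 among them), 3 lower (PPP1R1B, PENK and RGS9) and 3 not, with a median of −0.91. All 9 had reads in every library except FOXP2, at 0 in the control male. Red blood cells also carry ACHE, and 8 of their markers summed to 2.20 CPM in the sevoflurane male and 1.77 in the sevoflurane female, against 30.6 in the control male and 9.92 in the control female. HBQ1 made up 27.0 of the 30.6 CPM in the control male, and EPB42 was at 0 in each library and SLC4A1 in all but the control male. The part of these markers in the fall of ACHE was not tested. Within females, where the striatal-type sums were 266 CPM after sevoflurane and 423 in the control, ACHE was at 21.3 and 44.8 CPM.

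**Figure D2:**
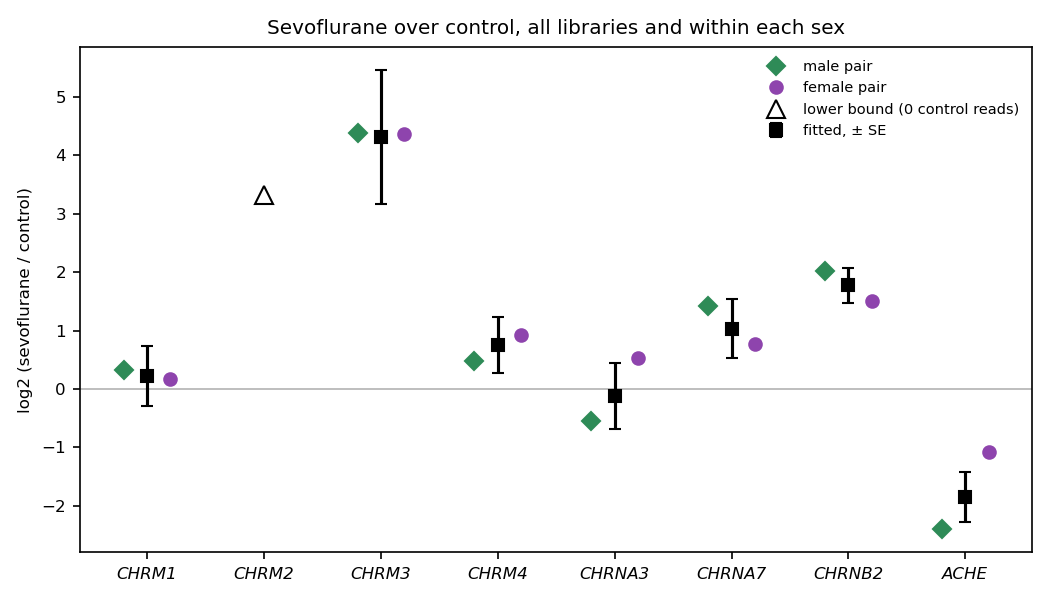
Log2 ratio of sevoflurane to control for the 8 tested members. Squares with bars are fitted values ± SE over all 4 libraries, diamonds are the male pair, circles are the female pair, and the open triangle is the lower bound for CHRM2, which had 0 control reads. The male and female points of CHRM3 nearly coincide, at 4.38 and 4.37, those of ACHE are at −2.40 and −1.07, and those of CHRNA3 lie on opposite sides of 0, at −0.55 and 0.52.

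The sexes were compared with condition in the fit. CHRM3 was lower in males, and it was the 1 of 8 members that was called, against 1.84% of all tested genes (283 of 15417). Its log2 difference, male over female, was −2.70 ± 0.52 (edgeR adjusted p = 0.0106), lower in males in both conditions. The ratio of male to female was 0.153 (95% counting interval 0.119 to 0.193) in the sevoflurane libraries and 0.151 (0.0294 to 0.492) in controls. CHRM1 had ratios of 0.469 and 0.426 in those conditions, and a fitted difference of −1.16 ± 0.30 that missed the threshold (adjusted p = 0.0651). It was called with library totals in place of TMM (−1.21, adjusted p = 0.0339) and with no filter (−1.18, adjusted p = 0.0230). Of the 8 members, CHRM1, CHRM3, CHRM4 and CHRNA7 were lower in the male library in both conditions, as were 29% of all tested genes. CHRM2 was lower in the sevoflurane male, with a ratio of 0.396 (0.221 to 0.682), and had no control reads to compare. With 1 library per sex and condition, sex cannot be told apart from any other difference between the libraries.

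**Figure D3:**
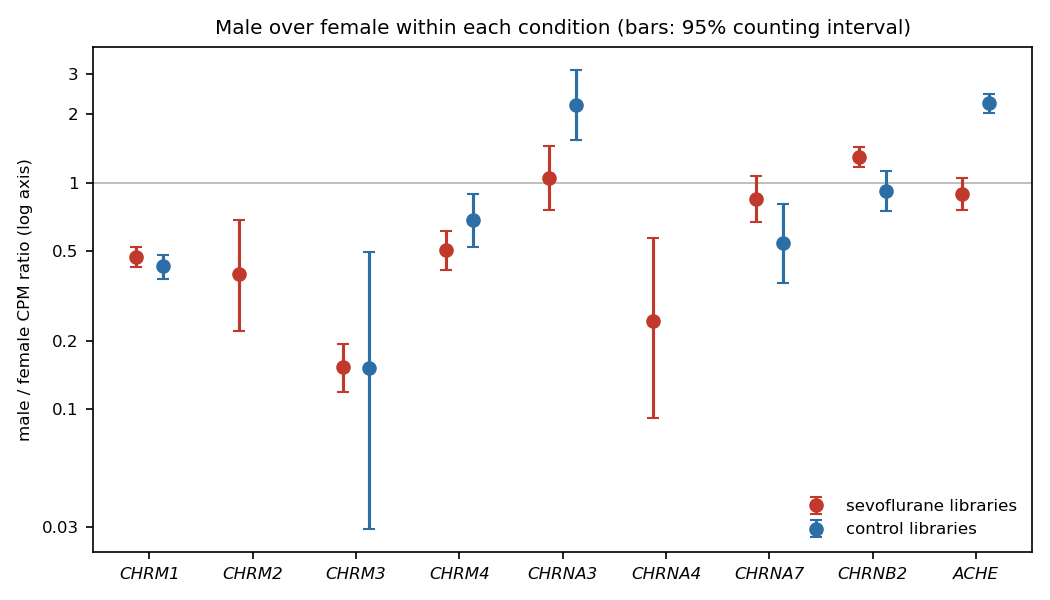
Ratio of male to female CPM within the sevoflurane libraries (red) and within the controls (blue) for the 9 members, on a log axis, with 95% counting intervals. CHRM2 and CHRNA4 have no control point, since the control male had 0 reads of both. CHRM3 sits at 0.153 and 0.151 and CHRM1 at 0.469 and 0.426, while ACHE is at 0.889 after sevoflurane and 2.24 in controls.

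Some other neuronal genes were lower in the male libraries. CHRNA2, a nicotinic subunit of some interneurons, was at 0.481 CPM in the male and 21.1 in the female sevoflurane library, and at 0.711 and 2.87 CPM in the male and female controls (log2 male over female −3.82, edgeR adjusted p = 0.0185). All 10 inhibitory neuron markers and 7 of 9 excitatory ones were lower in the male library in both conditions, beside 29% of all tested genes. Of these markers 0 and 1 were called lower in males, beside 160 of all 15417 tested genes. Of the 10 general neuronal markers 2 were lower in the male library in both conditions, with a median log2 male over female of 0.027. SLC17A6, a vesicular glutamate transporter abundant in subcortical neurons, was higher in males, at 390.3 CPM in the male and 68.2 in the female sevoflurane library, and at 111.5 and 29.2 CPM in the male and female controls (log2 male over female 2.23, edgeR adjusted p = 0.000799). The part of such marker differences in the lower CHRM3 of males was not tested.

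Genes that make and store acetylcholine were at or near 0. CHAT, the synthesizing enzyme, had 2 reads in the sevoflurane male and 0 in the other 3 libraries. SLC18A3, the vesicular transporter, had 0 reads in the sevoflurane male and 1 in the sevoflurane female, against 10 in the control male and 9 in the control female, a ratio of controls to sevoflurane of 21.7 (95% counting interval 3.45 to 901), and was too scarce for the test. SLC5A7, the high-affinity choline transporter, was at 4.05 and 0.696 CPM in the sevoflurane male and female, against 2.58 and 0.261 CPM in the control male and female (log2 fold change 0.76 ± 1.21, edgeR adjusted p = 0.639). BCHE, butyrylcholinesterase, which also splits acetylcholine, was at 12.7 and 5.63 CPM in the sevoflurane male and female, against 5.86 and 6.46 CPM in the male and female controls, and was not called (0.57 ± 0.53, adjusted p = 0.421). PRIMA1, the membrane anchor of ACHE in brain, was likewise not called (−0.70 ± 0.66, adjusted p = 0.419). CHAT, SLC18A3 and SLC5A7 are also among 9 markers of cholinergic neurons. These 9 summed to 10.9 CPM in the sevoflurane male and 11.7 in the sevoflurane female, against 21.7 in the control male and 15.7 in the control female. SLC10A4 made up 5.43 to 12.8 CPM of this. Of the 3 tested, NGFR, the low-affinity neurotrophin receptor, was called lower.

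Of the 13 other receptor genes, 7 were tested, 1 was called higher and 0 lower, with a median of −0.18. The 1 was CHRNB3, with 12 reads in the sevoflurane male and 13 in the sevoflurane female against 1 in each control, a ratio of 10.9 (95% counting interval 2.73 to 95.4; edgeR adjusted p = 0.0328). That call was lost with DESeq2 (adjusted p = 0.144), with no filter (0.114), and without the sevoflurane male (0.203), the control female (0.221) or the control male library (0.187). CHRNA2 had a log2 fold change of 2.56 ± 1.49, CHRNE of −1.37 ± 0.50, CHRNA1 of −0.47 ± 0.84, CHRNA6 of −0.44 ± 0.65, CHRNB1 of −0.18 ± 0.37 and CHRNA5 of 0.09 ± 0.75, and none of these 6 was called. CHRM5, CHRNA9, CHRNA10, CHRNB4 and CHRND were too scarce to test, with 0 to 11 reads per library, and CHRNG had 0 reads in all 4.

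The genes through which these receptors act were called in both directions, as were 21.3% (higher) and 19.4% (lower) of all tested genes. Of 10 genes of the Gq pathway, 5 rose and 1 fell, with a median log2 fold change of 1.01, against 0.0040 over all tested genes. PLCB1, the phospholipase C downstream of M1, was at 226.7 CPM in the sevoflurane male and 224.7 in the sevoflurane female, against 4.53 in the control male and 3.07 in the control female (5.90 ± 0.34, edgeR adjusted p = 0.00141). PRKCA, a protein kinase C, rose by 4.08 ± 0.34, and ITPR1, the calcium release channel opened by inositol trisphosphate, by 3.43 ± 0.58. Omitting a control moved ITPR1 to 4.45 (female omitted) or 2.82 (male omitted).

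Of 10 genes of the Gi and Go pathway 2 rose and 3 fell (median 0.59). Those that fell were the G protein subunits GNG3 (−2.10 ± 0.28), GNB2 (−1.72 ± 0.26) and GNAI2 (−1.25 ± 0.25). GNB1 (1.03 ± 0.31) and ADCY5, an adenylyl cyclase (1.03 ± 0.30), rose, and their calls were lost without either sevoflurane library or the control male, and for ADCY5 also without the control female. Of 6 potassium channel genes under muscarinic control 4 rose and 0 fell, with a median of 2.11, beside 21.3% higher and 19.4% lower over all tested genes; with so few genes nothing particular to the channels is read from this. KCNQ5, a subunit of the M-current channel that muscarinic receptors close, was at 35.9 and 48.2 CPM in the sevoflurane male and female, against 0.799 and 1.30 CPM in the control male and female (5.29 ± 0.44, edgeR adjusted p = 0.00153). KCNJ3, an inward rectifier opened by M2 and M4 signalling, rose by 5.08 ± 0.70, which became 6.78 with the female control omitted and 4.35 with the male control omitted. KCNJ6, of the same channel family, rose by 2.20 ± 0.57, a call lost without either sevoflurane library or the control female.

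Proteins that help nicotinic receptors form or tune them divided. RIC3, a chaperone of CHRNA7 receptors, was at 101.5 CPM in the sevoflurane male and 69.2 in the sevoflurane female, against 20.7 in the control male and 26.3 in the control female (1.86 ± 0.32, edgeR adjusted p = 0.00650). LY6H, a membrane-anchored modulator that lowers nicotinic signalling, was at 84.4 and 71.8 CPM in the sevoflurane male and female, against 740 and 439 CPM in the control male and female (−2.92 ± 0.35, adjusted p = 0.00263). The 4 other tested genes of this list were not called, TMEM35A among them (0.84 ± 0.41, adjusted p = 0.144), the chaperone known as NACHO. Over all these pathway lists 13 of 43 tested genes rose and 5 fell, with a median of 0.71. These 18 are close to the 40.7% called among all tested genes. With sex as a replicate block 26 of the 43 were called, but calls rose over all genes too, to 7825 of 15417.

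**Figure D4:**
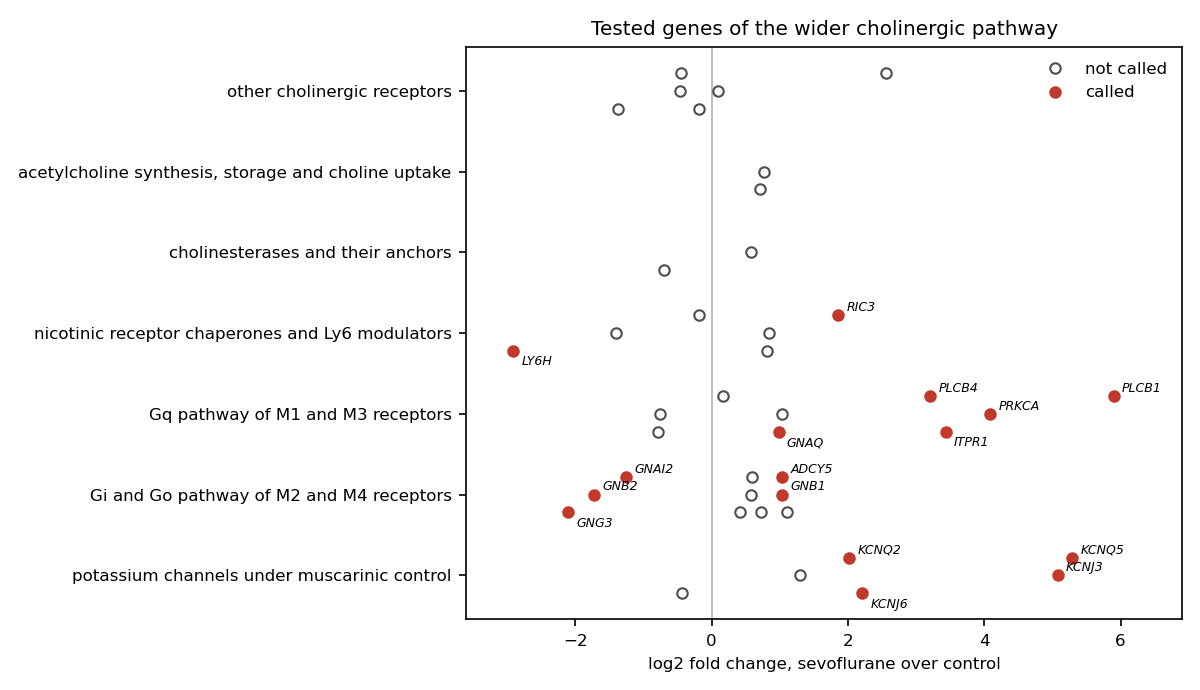
Log2 fold change, sevoflurane over control, of tested genes reported here in 7 lists of the wider cholinergic pathway, with at least 4 reads in each condition. CHRNB3, with 2 control reads, is not drawn. Filled points were called and are named. KCNQ5, KCNJ3 and PLCB1 lie above 5, and LY6H is lowest at −2.92.

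By distance between log2 CPM profiles over the 4 libraries, each centred on its own mean, the genes most like ACHE among 13819 tested genes with a symbol were STAP2, PDYN and TNFRSF6B, at distances of 0.156 to 0.167. PDYN, the dynorphin precursor, was at 20.1 CPM in the sevoflurane male and 24.4 in the sevoflurane female, against 101.0 in the control male and 44.4 in the control female. It was called lower (−1.70 ± 0.43, edgeR adjusted p = 0.0230), a call lost without either sevoflurane library or the control male (−1.03), and STAP2 and TNFRSF6B were not called. CHRM2 had the largest fitted rise, 8.04 on the log2 scale, but with 0 control reads that value and its control profile depend on the prior count, and its bound lies below the 19.9-fold difference of CHRM3. By the same distance the genes most like CHRM2 were FRAS1, RASSF3 and CENPI, at 0.149 to 0.188. RASSF3 and CENPI, like CHRM2, had 0 reads in both controls, and FRAS1 was at 23.3 and 60.7 CPM in the sevoflurane male and female, against 2.04 and 2.28 CPM in the control male and female.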

How the data were processed

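The submitters' processing notes name HISAT2, an aligner, with no version. The build, the way reads were counted and the use of strand were not given in the sources used here. Values deposited by the authors are whole-number counts of reads for each gene and library, with no normalization. Symbols came from a table that named 24173 of 35395 IDs.

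Members and gene lists were chosen with earlier results of these data known. In R 4.3.3, edgeR 4.0.16's filterByExpr (minimum count 10) left 15417 genes, with TMM factors of 0.904 to 1.10. edgeR's quasi-likelihood test was run on all genes, between conditions with no other term (2 residual degrees of freedom) and between the sexes with condition and sex as terms (1 residual degree of freedom). Standard errors came from the F statistic. CPM use TMM-scaled library sizes. Intervals are exact, at 95%, and cover counting error only. DESeq2 1.42.0 was an alternative. The fits were also run on simulated counts, with changes placed only in genes above a mean of 5 CPM. That simulation gave all genes the same spread between libraries. It therefore does not bear on scarce members such as CHRM2 and CHRNA4, or on the spread between the libraries used here. No gene lengths were used, so levels are compared within genes only, and no sequences are given.

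The genes named were all members, the other cholinergic receptors, CHAT, SLC18A3, SLC5A7 and BCHE, up to 3 called genes per direction in each pathway list, and the 3 nearest profiles. Single marker genes, PRIMA1, TMEM35A and neighbouring genes were named after their values were seen. Other marker lists were, with genes called higher and lower of those tested, general neuronal (3 and 1 of 10), excitatory (0 and 2 of 9), inhibitory (0 and 1 of 10), astrocyte (1 and 3 of 9), microglial (0 and 7 of 10), oligodendrocyte (0 and 1 of 8), endothelial (3 and 2 of 9), choroid plexus (0 and 2 of 6) and red blood cell markers (0 and 1 of 4). Some listed genes enter the counts and medians but are not reported here by name.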

Additional observations from a re-analysis of the deposited data

Results flagged for a closer look

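CHRNA3 moved in opposite directions in the sexes: its log2 ratio of sevoflurane to control was −0.55 in males and 0.52 in females. With 1 library per sex and condition this difference was not tested.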

How the results depend on the processing

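The count of genes called between conditions was 6278, and 3469 to 5800 with 1 library left out. The count of called members was 4, and 1 to 4 with 1 library left out; without the sevoflurane female library the 1 was CHRNB2. Of 79 refits of single members under the alternatives, 74 stayed on the same side of the threshold and in 5 a call was lost, all 5 by leaving out a library, which leaves fewer samples. Of the uncalled members, CHRM1 and CHRNA3 turned sign, as given beside them. Genes called between the sexes numbered 283, and 603 with no filter on low counts. With library totals in place of TMM the median log2 fold change of all genes was 0.24, and CHRM3, CHRNB2 and ACHE were at 4.54, 2.00 and −1.60, all called. With TMM, 52.3% of called genes were higher, and with library totals 63.3%. Sex as a replicate block changed no member's call and gave 7825 called genes. CHRM2 was not tested with a minimum of 5 CPM. No library can be left out between the sexes, since no residual degrees of freedom remain. Depth limits CHRM2 and CHRNA4.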

Other observations

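LHX8, a factor of basal forebrain cholinergic neurons, had 0 reads in both sevoflurane libraries, against 21 in the control male and 0 in the control female. GBX1, expressed in the same lineage, had 4 reads in the sevoflurane male and 0 in the sevoflurane female, against 10 in the control male and 1 in the control female.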
